A study of Rattus norvegicus with 20 samples.

Results

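The reads described here carried a G where the annotated rat microRNA (miRNA) has an A, the form that an edited adenosine takes in sequencing. They were chosen from 20 small RNA libraries as the sequences that matched a single miRNA with 1 mismatch, namely a read G over a reference A. There were 7659 such sequences among the 67859 distinct sequences listed in the files. They held 1015855 of 129243200 reads, and the 38766 single-miRNA sequences with any of the 12 kinds of substitution held 2705869 reads. Each library listed between 1424 and 2672 of these sequences with between 28268 and 87789 reads.

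The libraries were made from frozen tissue punches of the adBNST (the anterodorsal part of the bed nucleus of the stria terminalis, a limbic forebrain region) of Sprague-Dawley rats, an outbred strain. The rats were weaned at 21 days of age and then lived for 6 weeks either alone (socially isolated, SI) or with cage mates of the same litter and sex, 3 rats to a cage (group housed, GH). Each of the 4 combinations of sex and housing held 5 rats. All 20 were run on an elevated plus maze at 9 weeks of age before the tissue was taken, controls included. For females, the paper chose samples of the highest RNA integrity that also spanned a range of estradiol levels. It describes no such choice for males. The RNA input was 215 ng for each library, amplified in 22 PCR cycles.

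Adenosine deaminases acting on RNA (ADARs) convert adenosine to inosine in double-stranded RNA such as the hairpin of a miRNA precursor. Reverse transcriptase reads inosine as G, so that the change appears as an A-to-G substitution. The enzymes are known to favour an A that follows U or A and to disfavour one that follows G, and brain RNA is known to carry many edited sites. The seed of a miRNA, the bases near its 5′ end that pair with target mRNAs, is a known place of such changes, and a changed seed can pair with other mRNAs.

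Each library held between 3421757 and 11361315 single-miRNA reads, and each listed sequence had at least 2 reads. The neuronal miR-124-3p was present at 6919 to 29794 RPM (miRNA reads scaled to the depth of the library) and the neural miR-9a-5p at 33846 to 96081, whereas miR-122-5p, the leading miRNA of liver, was at 0 to 33.4. The files of the SI rats numbered 17 are named for the opposite sexes of their labels, and the labels were used. The p-values measure the spread between separate rats. The labels give no cage or litter, so GH rats that shared a cage cannot be identified. The tests treat all rats as independent. Intervals and upper limits given for counts of reads cover counting error only, because reads and not molecules were counted. They do not cover substituted sequences read once in a library, which are not listed. The punches are bulk tissue, in which fewer cells of a type and less RNA per cell cannot be told apart.

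Positions are counted from base 1 at the 5′ end of the mature miRNA, and miR-376b-3p A6G means that reads had G over the reference A at base 6. For 8 of the 10 miRNAs with the highest shares of substituted reads, the mature form is shown from RefSeq (build GRCr8), with the seed, bases 2 to 8, in capitals. The remaining ones, miR-151-3p and miR-378a-3p, are described with the values. The 8 are shown because 7 of these 8 changes lie in the seed and the neighbouring bases can be read from them.
miR-376b-3p: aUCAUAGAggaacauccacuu
miR-376c-3p: aACAUAGAggaaauuucacgu
miR-411-5p: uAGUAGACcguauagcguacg
miR-379-5p: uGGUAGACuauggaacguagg
miR-3099: uAGGCUAGaaagagguugggga
miR-344b-1-3p: gAUAUAACcaaagcccgacugu
miR-488-3p: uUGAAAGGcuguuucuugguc
miR-377-3p: uGAAUCACacaaaggcaacuuuu

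The most frequent substituted read of each, as it stands in the deposited files, is shown with the G in capitals, so that the changed base and the ends of the read can be compared with the mature form.
miR-376b-3p A6G: atcatGgaggaacatccactt
miR-376c-3p A6G: aacatGgaggaaatttcacgt
miR-411-5p A5G: tagtGgaccgtatagcgtacg
miR-379-5p A5G: tggtGgactatggaacgtagg
miR-3099 A7G: taggctGgaaagaggttgggga
miR-344b-1-3p A7G: gatataGccaaagcccgactga
miR-488-3p A5G: ttgaGaggctgtttcttggt
miR-377-3p A13G: tgaatcacacaaGggcaactttt

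In 5 of these 8 changes the A was followed by G and preceded by U, which gives the triplet UAG. These were the changes in miR-376b-3p, miR-376c-3p, miR-411-5p, miR-379-5p, and miR-3099. The substituted read of miR-344b-1-3p ended in ga where the mature form ends in gu.

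The hosts on chromosome 6 lie in one large miRNA cluster on the plus strand of GRCr8. Mature miR-379-5p is at chr6:134543460-134543480, miR-411-5p at chr6:134544604-134544624, miR-376c-3p at chr6:134558256-134558276, and miR-376b-3p at chr6:134558913-134558933. All 4 lie within the lncRNA gene LOC102555254. Mature miR-377-3p is at chr6:134576498-134576520 within the lncRNA gene LOC120103623. Outside the cluster, miR-488-3p is at chr13:73216589-73216609 on the plus strand, within the protein-coding gene Astn1. On the minus strand of chromosome 1, miR-3099 is at chr1:76057109-76057130 and miR-344b-1-3p at chr1:124035684-124035705, with no other gene annotated over them.

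The first comparison asked how the A-to-G reads stood against the other 11 kinds of substitution, counted in the same way. The rate of A-to-G was 1.66 substituted bases per 1000 reference A read (median of 20 libraries, 1.29 to 1.88). The next kind was T-to-C at 0.709 per 1000 T (0.583 to 0.830), then C-to-T at 0.482 and G-to-A at 0.352. The other changes of the same reference base were far rarer, with A-to-T at 0.0883 and A-to-C at 0.0516. The A-to-G rate was above that of each of the other 11 kinds in 20 of 20 libraries (permutation test of the paired difference, two-sided, 100000 resamples, adjusted p = 4.00e-05 for each kind). The smallest mean difference was that from T-to-C, at 0.928 per 1000.

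The A-to-G reads made up a median of 0.787% of single-miRNA reads (0.615% to 0.909%). By group, the median rate per 1000 A was 1.66 in males and 1.75 in females with group housing, and 1.45 in males and 1.65 in females with isolation. The ranges of the groups overlapped, with SI males between 1.29 and 1.74 and GH females between 1.60 and 1.88.

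The reads were not spread evenly over sites. A site is one miRNA, position, and substitution. The A-to-G reads fell on 1321 sites, and 434 of these had at least 10 substituted reads in at least 5 of the 20 libraries and were tested. The share of a site is the percentage of the reads of its miRNA that carry the substitution, and a library without reads of the miRNA counted as 0 in the median share over libraries. Among the 434 sites, the median share over libraries was under 0.1% at 217, from 0.1% to under 1% at 199, from 1% to under 10% at 10, and 10% or more at 8. The 18 sites at 1% or more were 4.15% of the A-to-G sites tested. Of the 1712 sites tested of the other kinds together, 11 were as high, 0.643%. The highest of these kinds were C-to-T with 1.58% of its sites tested and G-to-A with 1.30%. The median site tested had a share of 0.0999% for A-to-G and 0.0865% for T-to-C. Just above the limit were miR-421-3p A14G at 1.40% and miR-300-3p A7G at 1.22%, and just below it were miR-708-3p A3G at 0.942% and miR-335 A4G at 0.765%.

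These 18 sites held a median of 40.8% of all A-to-G reads of a library (33.3% to 46.6%). Without all 29 sites at 1% or more, the A-to-G rate was 0.998 per 1000 (0.807 to 1.12), and T-to-C was 0.707. The highest shares among the other kinds stood on few reads. They were miR-466c-5p C18T at 94.3% of a median of 81 reads per library, miR-26a-3p G11A at 78.9% of 24 reads, and miR-199a-5p C10T at 59.1% of 8 reads. The next were miR-344a-3p T21C at 4.81% of 1168 reads and miR-219a-5p C15T at 3.73% of 36.5 reads. The substituted form of miR-344a-3p T21C was found, its last 2 bases aside, without a mismatch in the hairpin of Mir344-1, and no other form at 1% or more inside a mature miRNA was found so in another hairpin of the RefSeq table.

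At the position of each of the 18 sites, reads with either of the other substituted bases had a median share of 0, except at base 1 of miR-99a-5p with 0.00994%. A G carried by the genome of a rat and a G read from inosine cannot be told apart in these reads.

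The changed position was G in most reads of miR-376b-3p. Its A6G share was 77.7%, 68.3%, 68.3%, 65.8%, and 63.8% in GH males and 55.0%, 51.8%, 58.7%, 90.0%, and 63.4% in SI males. In females it was 67.5%, 63.5%, 62.7%, 64.5%, and 66.2% with group housing and 69.3%, 61.2%, 54.1%, 63.7%, and 82.0% with isolation. The G form was thus the larger part in 20 of 20 rats, the groups overlapped, and the GH females were the most alike. The substituted seed is ucaugga in place of ucauaga, and no other rat miRNA in RefSeq has it. The related miR-376c-3p carried the change at the same base, with far fewer reads (median 301 per library) and a wider spread. Its A6G share was 18.5% ± 7.60 (SD, n = 5) in GH males, 28.1% ± 19.1 (n = 5) in SI males, 23.7% ± 8.41 (n = 5) in GH females, and 35.2% ± 15.8 (n = 3) in SI females. An SI male had 0 of 55 reads substituted, which allows a share of up to 5.45%, and 2 SI females had no miR-376c-3p reads.

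The miR-376b hairpin also gave reads of its other arm. The share of miR-376b-5p A7G was low, at a median of 2.07% (0 to 11.2%), and 7 of 20 libraries had no substituted read. Another relative, miR-376a-3p, had the same A at base 6 and showed no substituted read among 6056, which allows a share of up to 0.0495%.

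The steadiest site was miR-3099 A7G. Its share was 50.2%, 55.0%, 56.3%, 56.4%, and 54.7% in GH males, 54.7%, 57.6%, 54.3%, 50.9%, and 53.8% in SI males. It was 50.4%, 51.3%, 55.5%, 54.7%, and 55.0% in GH females and 53.4%, 55.3%, 51.3%, 58.2%, and 50.2% in SI females. All 20 rats lay between 50.2% and 58.2%, with a coefficient of variation of 4.56% over a median of 14539 host reads. The substituted seed aggcugg is also the seed of rno-miR-6333. At the other 6 A of miR-3099 the highest median share of G was 0.242%.

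The neighbours miR-379-5p and miR-411-5p both carried the change at base 5, within the shared seed stretch guagac. For miR-411-5p A5G the share was 21.4%, 23.8%, 28.3%, 25.3%, and 31.7% in GH males and 35.2%, 25.5%, 27.5%, 34.7%, and 19.3% in SI males. It was 18.7%, 28.0%, 28.2%, 21.3%, and 26.0% in GH females and 30.7%, 25.8%, 23.0%, 33.1%, and 20.03% in SI females. The 4 groups overlapped. For miR-379-5p A5G, on the deepest host of the list with a median of 31364 reads, the share was several times lower. It was 4.73%, 5.40%, 5.24%, 5.20%, and 5.32% in GH males and 6.04%, 6.59%, 7.10%, 5.65%, and 5.61% in SI males, so every SI male was above every GH male. It was 5.80%, 4.87%, 7.08%, 5.30%, and 5.55% in GH females and 5.50%, 6.01%, 5.62%, 7.77%, and 8.05% in SI females, which overlapped.

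The share of miR-344b-1-3p A7G was 33.0%, 39.1%, 46.1%, 34.6%, and 35.9% in GH males and 32.7%, 28.1%, 47.9%, 40.9%, and 31.4% in SI males. It was 65.4%, 39.8%, 38.5%, 39.1%, and 39.4% in GH females and 38.1%, 32.6%, 32.9%, 33.8%, and 31.1% in SI females. The groups of males overlapped, every SI female was below every GH female, and 1 GH female stood far above the rest. Without that rat the lowest GH female, at 38.5%, was still above the highest SI female, at 38.1%. The SI male numbered 17, whose file is named as female, had 40.9%, so with the labels of the SI rats numbered 17 exchanged the females overlapped. The substituted form differed at 2 bases from the nearest other hairpin, Mir344a-2.

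For miR-488-3p A5G, a miRNA encoded within the neuronal gene Astn1, the share was 19.9%, 19.5%, 17.04%, 19.97%, and 21.7% in GH males and 23.7%, 15.99%, 20.3%, 24.3%, and 28.9% in SI males. It was 16.9%, 15.2%, 14.3%, 15.6%, and 14.8% in GH females and 24.2%, 18.4%, 5.26%, 26.1%, and 41.7% in SI females. Every GH female was below every GH male, and the SI females were the most spread. The highest SI female was the rat numbered 16, which had the fewest reads of 12 of the 17 host miRNAs.

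The highest median share, that of miR-377-3p A13G, stood on a median of 81 host reads and lay outside the seed. It was 100%, 100%, 84.6%, 83.3%, and 78.9% in GH males, and 64.1%, 51.6%, 75.4%, 66.3%, and 72.1% in GH females. In SI rats it scattered, with 0%, 19.1%, 91.4%, and 0% in 4 males and 0%, 71.7%, 44.4%, and 72.3% in 4 females, and the remaining rat of each group had no reads of the miRNA. The 3 values of 0 allow shares of up to 2.94%, 15.8%, and 10.7%.

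The remaining sites at 1% or more had lower shares. The seed site miR-151-3p A3G had 11.7% ± 0.562 in GH males, 10.2% ± 2.26 in SI males, 9.46% ± 1.35 in GH females, and 10.7% ± 1.29 in SI females (SD, n = 5 each). Another site, miR-378a-3p A16G, lies in a miRNA within Ppargc1b, a coactivator gene of mitochondrial metabolism, and was at 7.96%, 7.31%, 5.96%, 5.71%, and 5.14% in GH males and 5.002%, 4.83%, 4.51%, 5.21%, and 6.78% in SI males. It was at 8.07%, 6.87%, 6.59%, 7.48%, and 7.31% in GH females and 4.74%, 6.08%, 4.90%, 6.31%, and 3.77% in SI females, so every SI female was below every GH female while the males overlapped. The same miRNA carried A6G in its seed at a median of 2.43% (1.11% to 7.63%).

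At the first base, miR-99a-5p A1G had 3.65% ± 0.480 in GH males, 2.76% ± 0.333 in SI males, 4.13% ± 0.375 in GH females, and 3.72% ± 0.674 in SI females (SD, n = 5 each). Base 1 is outside the seed, and the substituted form differed at 2 bases from the hairpin of Mir100, of the same family. The others were miR-99b-3p A3G at a median of 3.84%, miR-708-3p A6G at 3.38%, and miR-137-3p A16G at 2.59%, of which the last had no substituted read in 4 libraries. These 3, and miR-376b-5p, are shown with the G in capitals as further examples of the changed base.
miR-99b-3p A3G: caGgctcgtgtctgtgggtccg
miR-708-3p A6G: caactGgactgtgagcttctag
miR-137-3p A16G: ttattgcttaagaatGcgcgtag
miR-376b-5p A7G: gtggatGttccttctatggtt

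A list of 16 positions, written from memory as reported targets of ADARs in mammalian miRNAs, was looked up. Earlier results of these data were known when the list was chosen, so its matches are given as a description. At 9 of them the median share was 1% or more, and these were miR-376b-3p A6G, miR-376c-3p A6G, miR-411-5p A5G, miR-379-5p A5G, miR-151-3p A3G, miR-99a-5p A1G, miR-421-3p A14G, miR-378a-3p A16G, and miR-3099 A7G. For miR-497-5p A2G there were 9 substituted reads of 1656, in 2 libraries. No substituted read was found for miR-376a-3p A6G among 6056 reads (up to 0.0495%) or for miR-381-3p A4G among 319 reads (up to 0.940%). The same held for miR-455-5p A17G among 359 reads (up to 0.836%) and miR-200b-3p A5G among 529 reads (up to 0.567%). These limits leave out sequences read once in a library, so the true shares can lie above them. The limit for miR-381-3p also covers only reads listed under it. Its hairpin, Mir381, differed at 2 bases from the substituted form of miR-300-3p A7G. Whether substituted miR-381-3p reads were listed as miR-300-3p was not tested. No reads of miR-1251-5p or miR-589-3p were listed.

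The rule that chose the reads did not use the bases around the A. Of the 18 sites, 13 lay in the seed (72.2%), against 40.1% of the other 765 A in the mature forms of the miRNAs tested. The base before the A was U at 10 sites, A at 6, C at 1, and G at 1. Among the other A it was U at 20.9%, A at 23.0%, C at 29.2%, and G at 26.8%. The base after the A was G at 11 of 18 sites (61.1%), against 31.2% of the others. The triplet UAG stood at 7 of 18 sites (38.9%) and at 58 of 765 others (7.58%). The sites with C or G before the A were both in miR-378a-3p.

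For 11 of the 18 sites a RefSeq hairpin was at hand, which is 61.1% of them and too few for a check of the fold over the whole list. In the minimum free energy fold of these hairpins the A was unpaired at 6 sites and paired with U at 5, and 19.3% of the other A in hairpins at hand were unpaired. The unpaired ones were in miR-3099, miR-377-3p, miR-379-5p, miR-411-5p, miR-421-3p, and miR-488-3p. By position in the genome, 7 of the 15 host miRNAs with a RefSeq locus were on chromosome 6 (46.7%), against 38 of 145 miRNAs of all sites tested (26.2%). Members of one cluster are not independent, and these shares are given as a description.

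The ends of substituted and unsubstituted reads of the same miRNA were compared, and whether a difference between them is particular to A-to-G was not tested. Values for reads with another mismatch are given where there were enough of them. In libraries with at least 100 reads of each kind, the share of reads with nucleotides added at the 3′ end was compared over 10 sites, together with the share whose 5′ end was moved, in 20 paired tests (permutation test, two-sided, Benjamini-Hochberg adjustment over the 20). For miR-344b-1-3p A7G a median of 63.9% of substituted reads had a 3′ addition against 6.80% of unsubstituted reads, higher in 20 of 20 libraries (adjusted p = 0.00060). For miR-376b-3p A6G it was 19.1% against 5.58%, higher in 16 of 19 libraries (adjusted p = 0.0012). For miR-3099 A7G it was 53.1% against 47.5%, higher in 17 of 20 libraries (adjusted p = 0.0012). Reads of miR-3099 with another mismatch had an addition in 60.7%, a median over the 16 libraries with at least 100 of them, which is above both. For miR-344b-1-3p and miR-376b-3p no library had that many reads with another mismatch.

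The opposite direction was seen at miR-379-5p A5G, where 11.98% of substituted and 15.3% of unsubstituted reads had an addition (higher in 2 of 20 libraries, permutation test, adjusted p = 0.0090). It was also seen at miR-378a-3p A6G with 35.6% against 46.9% (higher in 5 of 17 libraries, permutation test, adjusted p = 0.021). At the 5′ end, the substituted reads of miR-151-3p A3G were moved more often, at 7.90% against 3.52% (18 of 20 libraries, permutation test, adjusted p = 0.00060), and those of miR-376b-3p A6G less often, at 1.16% against 4.56% (higher in 1 of 19 libraries, permutation test, adjusted p = 0.0014). Reads with another mismatch had an addition in 13.5% for miR-379-5p and 47.6% for miR-378a-3p, and a moved 5′ end in 6.68% for miR-151-3p. The substituted reads of miR-344b-1-3p were moved in 0% against 1.27% (higher in 4 of 20 libraries, permutation test, adjusted p = 0.028). The other 12 of the 20 tests had an adjusted p of 0.050 or more, and the lowest of these was for the 5′ end of miR-378a-3p A16G.

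The study compared housing within each sex and the sexes among GH rats. The same comparisons were made for the shares, and the sexes among SI rats and the interaction were added here. With edgeR's quasi-likelihood test on substituted and remaining reads, 0 of the 434 A-to-G sites passed an adjusted p of 0.05 in SI against GH males, in SI against GH females, in GH females against GH males, in SI females against SI males, or in the interaction of housing and sex. The background over all 2146 sites of the 12 kinds was 0.0% called in each. At an unadjusted p under 0.05 there were 18 A-to-G sites for males (4.15%, background 4.85%), 32 for females (7.37%, background 6.71%), 12 for the sexes in GH rats (2.76%, background 2.33%), 22 for the sexes in SI rats (5.07%, background 5.41%), and 13 for the interaction (2.995%, background 3.87%). The lowest adjusted p of an A-to-G site was 0.54 in edgeR. The median log2 change of the 434 sites was -0.06 for SI against GH males (-0.05 over all kinds), -0.20 for SI against GH females (-0.18), 0.17 for the sexes in GH rats (0.13), and 0.01 for the sexes in SI rats (-0.01).

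With limma on log2 ratios 0 A-to-G sites passed in any of the 5, where the background was 0.0%. At an unadjusted p under 0.05 limma gave 29 A-to-G sites for males (6.68%, background 6.24%), 45 for females (10.4%, background 8.39%), 17 for the sexes in GH rats (3.92%, background 4.05%), 38 for the sexes in SI rats (8.76%, background 6.62%), and 23 for the interaction (5.30%, background 4.85%). DESeq2 called 1 site, miR-22-3p A-1G in SI females against SI males, at the base before the annotated 5′ end (log2 difference -6.04 ± 1.5 SE, adjusted p = 0.024). This site was chosen for mention after its values were seen. In that comparison DESeq2 called 10 of the 2146 sites of all kinds, a background of 0.466%, and the background was 0.0466% for SI against GH females and for the interaction and 0.0% otherwise. At an unadjusted p under 0.05 DESeq2 gave 24 A-to-G sites for males (5.53%, background 6.9%), 35 for females (8.06%, background 8.85%), 12 for the sexes in GH rats (2.76%, background 3.26%), 27 for the sexes in SI rats (6.22%, background 7.83%), and 18 for the interaction (4.15%, background 5.92%). The median standard error of an A-to-G site was 0.41 on the log2 scale for SI against GH males.

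The 18 sites at 1% or more were compared one by one with the exact permutation test, two-sided, in 72 tests of 5 rats against 5 at most, in which the smallest p is 0.0079. In 9 tests the exact p was under 0.05, and the lowest value adjusted over the 72 was 0.095, so that none passed. In 6 tests the groups did not overlap. This was 1 of 18 sites for SI against GH males (background 0.885% of all sites tested), 2 for SI against GH females (background 1.77%), 3 for GH females against GH males (background 0.839%), and 0 for SI females against SI males (background 0.652%). Over the 434 A-to-G sites tested, it was 3 (0.691%), 17 (3.92%), 8 (1.84%), and 3 (0.691%) in the same order.

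The site apart in males was miR-379-5p A5G, at 6.20% in SI and 5.18% in GH males (difference 1.02 percentage points, edgeR log2 odds ratio 0.27 ± 0.20, here and below with its standard error, edgeR adjusted p = 0.999). These standard errors come from a single fit of all 4 groups and do not measure only the spread of the groups compared. In females, miR-344b-1-3p A7G was 33.7% in SI and 44.4% in GH rats (log2 odds ratio -0.64 ± 0.41, edgeR adjusted p = 0.85). With the SI rats numbered 17 exchanged, these groups overlapped and the difference was -9.15 percentage points (exact permutation test, adjusted p = 0.41), against -10.8 as labelled. The other in females was miR-378a-3p A16G, at 5.16% in SI and 7.26% in GH rats (log2 odds ratio -0.55 ± 0.25, edgeR adjusted p = 0.73).

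Between the sexes in GH rats, miR-488-3p A5G was 15.4% in females and 19.6% in males (log2 odds ratio -0.42 ± 0.51, edgeR adjusted p = 0.9997). There, miR-137-3p A16G was 1.27% in females and 3.33% in males (log2 odds ratio -1.73 ± 1.44, edgeR adjusted p = 0.9997), and miR-377-3p A13G was 65.9% and 89.4% (log2 odds ratio -2.75 ± 2.03, edgeR adjusted p = 0.9997). The comparisons share groups of rats and are not independent of each other. For each of these 6 the exact p was 0.0079 and its adjusted value 0.095. With the SI rats numbered 17 exchanged, the other 5 were still apart, and miR-376b-3p A6G in SI against GH males (56.6% and 68.8%) and miR-488-3p A5G in SI against GH females (27.0% and 15.4%) came apart as well, each with an adjusted exact permutation p of 0.082. The remaining 3 tests with an exact p under 0.05 were miR-99a-5p A1G in SI against GH males and in SI females against SI males, and miR-151-3p A3G in GH females against GH males, with an adjusted exact p of 0.14 to 0.19.

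The amounts of some host miRNAs differed where their shares did not pass the test. Of 500 miRNAs tested with edgeR, 4.0% passed for SI against GH males, and 3 of the 17 hosts were among them. The log2 change in SI males was -1.49 ± 0.39 (SE) for miR-411-5p (edgeR adjusted p = 0.023), -1.29 ± 0.28 for miR-300-3p (edgeR adjusted p = 0.011), and 1.05 ± 0.21 for miR-378a-3p (edgeR adjusted p = 0.0070). The log2 odds ratio of the A5G share of miR-411-5p in the same comparison was 0.15 ± 0.30 (edgeR adjusted p = 0.999). That of miR-300-3p A7G was -0.09 ± 0.76 and that of miR-378a-3p A16G was -0.30 ± 0.25, each with an edgeR adjusted p of 0.999. No host passed in the other 4 comparisons, in which 0.0% to 0.4% of the 500 miRNAs did. For SI against GH females 0.4% passed here, whereas the paper, with DESeq2, reports more changed miRNAs in females than in males. Why they differ was not tested.

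The mean share over the 18 sites gave 1 value for each rat, with equal weight for each site whose miRNA had reads in that rat. Reads of miR-377-3p or miR-376c-3p were lacking in 1 SI male and 2 SI females, whose mean leaves these sites out. It was 20.02%, 20.04%, 19.9%, 20.1%, and 19.7% in GH males and 15.96%, 15.03%, 21.4%, 16.1%, and 16.1% in SI males. It was 18.96%, 17.7%, 19.4%, 17.3%, and 19.6% in GH females and 17.1%, 19.1%, 14.3%, 21.0%, and 16.8% in SI females. The GH males were the most alike, 4 of 5 SI males lay below all of them, and GH females lay just below GH males without overlap. Of these 4, the SI male numbered 17 had no miR-377-3p reads, so its 16.1% is a mean over the other 17 sites. Over those 17 sites the GH males had 15.8% ± 0.489 (SD, n = 5), so its rank below them is not like for like. Over all 18 sites the mean was 19.9% ± 0.157 (SD, n = 5) in GH males and 18.6% ± 1.03 (SD, n = 5) in GH females, a difference of -1.34 percentage points (exact permutation test, two-sided, p = 0.0079, adjusted over 4 comparisons p = 0.032).

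The other 3 comparisons did not pass after adjustment. SI males had 16.9% ± 2.55 (SD, n = 5), a difference of -3.00 percentage points from GH males (exact permutation test, p = 0.048, adjusted p = 0.095). SI females had 17.6% ± 2.53 (SD, n = 5), a difference of -0.95 from GH females (exact permutation test, p = 0.48, adjusted p = 0.63) and of 0.72 from SI males (exact permutation test, p = 0.67, adjusted p = 0.67). All 4 differences shrank or changed sign without the thinly covered miR-377-3p, an alternative chosen after seeing the data. Without miR-377-3p A13G, the difference of GH females from GH males was -0.04 (exact permutation test, adjusted p = 0.96) and that of SI from GH males was 0.59 (exact permutation test, adjusted p = 0.96). Over the 12 sites whose host had at least 500 reads in every library, the mean shares of the 4 groups were 14.6% and 14.7% in GH and SI males and 14.5% and 14.6% in GH and SI females, with an adjusted exact permutation p of 0.94 in each comparison.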

How the data were processed

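The 20 libraries hold small RNA reads of adBNST tissue. Adapters were removed by the authors with cutadapt, and the collapsed reads were matched to rat miRBase v21 with seqbuster. The submitters' processing notes also name FastQC and STAR, and tool versions are not given in the sources used here. The deposited counts are whole numbers of reads of each distinct sequence, without normalization, and sequences read once are not in the files. The aligner kept at most 1 mismatch, so reads with further substitutions do not appear.

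Reads of a single miRNA were used. The mismatch field gives the position in the read, the read base, and the reference base. This order was checked on all 184574 mismatches listed, of which 100% matched the read. Positions were moved to the mature miRNA by the 5′ end field, and 100% of the 172200 mismatches inside it matched the unsubstituted reads. RefSeq had 556 of 612 miRNAs by name, 555 with the same sequence. Sequences and coordinates are from RefSeq GRCr8.

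A site was tested with at least 10 substituted reads in at least 5 of the 20 libraries. edgeR 4.0.16 in R 4.3.3 fitted substituted and remaining reads with a coefficient per library and a log ratio per group, with Benjamini-Hochberg adjustment over 2146 sites. Amounts of miRNAs were normalized with TMM. DESeq2 1.42.0, limma 3.58.1 (pseudocount 0.5), amounts of substituted reads, other read subsets, filters, and shares, each rat left out, the SI rats numbered 17 exchanged, and a block on animal number were alternatives, and 2 more, with the exchange for single sites, were chosen after seeing the data. Rates, exact and permutation tests used Python 3.11.15 and scipy 1.17.1, and folds ViennaRNA 2.7.2. On simulated counts for SI against GH males (2146 sites, 200 changed), edgeR recovered 24% of sites with a log2 change of 1 and 78% of sites with a log2 change of 2, and 0.971% of its calls were unchanged sites. DESeq2 recovered 20% and 78%, with 2.97%.

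Named sites were the listed known sites, the 15 A-to-G sites of highest median share, up to 3 called sites per comparison, and the 5 sites of other kinds of highest share. miR-376b-5p A7G and miR-300-3p A7G complete the sites at 1% or more. The members, lists, and tests were chosen with earlier results of these data known. Upper limits take 3 reads for a count of 0.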

Additional observations from a re-analysis of the deposited data

Results flagged for a closer look

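Within a group of 5 rats, 7 values stood apart from the others by the size of their gap against the whole range of the group (Dixon's ratio above 0.71 for 5 values). Chance gives such a gap in about 1 in 20 groups, and up to 80 groups were examined.

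At miR-3099 A7G a GH male had 50.2% with the nearest at 54.7%. At miR-344b-1-3p A7G a GH female had 65.4% with the nearest at 39.8%. At miR-137-3p A16G an SI female had 13.1% with the nearest at 3.13%. At miR-421-3p A14G an SI female had 3.04% with the nearest at 0.268%.

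At miR-300-3p A7G an SI male had 0.150% with the nearest at 1.16%, and an SI female had 7.34% with the nearest at 2.004%. In the mean share over the 18 sites an SI male had 21.4% with the nearest at 16.1%, and the same rat had 91.4% at miR-377-3p A13G on 35 reads.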

How the results depend on the processing

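The A-to-G rate stayed above the other 11 kinds of substitution in 5 alternatives and with each rat left out. The median rate was 1.65 to 1.66 per 1000 with a rat left out. It was 1.47 for reads without a 3′ addition and 1.61 for reads that start at base 1. Without the last 3 bases it was 1.63, and with reads of several miRNAs included 1.71. The number of A-to-G sites at 1% or more was 17 to 19 with a rat left out, 25 at a limit of 0.5%, 10 at 5%, and 12 for hosts with at least 500 reads in every library. Site comparisons gave 0 A-to-G calls in every alternative and with each rat left out (0 to 0), except DESeq2 with 1 for SI females against SI males. For the mean share over the 18 sites, SI against GH males was -4.41 to -2.59 percentage points with a rat left out, -4.41 without the SI male numbered 22 (exact permutation test, adjusted p = 0.032), 0.59 without miR-377-3p A13G, and 0.11 for hosts with at least 500 reads. SI against GH females was -1.78 to -0.10 with a rat left out and 0.44 and 0.083 under the last 2 alternatives. GH females against GH males was -1.69 to -0.98 with a rat left out (adjusted exact permutation p = 0.063 without any of its own 10 rats, at the smallest exact p of 0.016), -1.03 for reads without a 3′ addition (exact permutation test, adjusted p = 0.21), -1.14 for reads that start at base 1 (exact permutation test, adjusted p = 0.16), -0.037 without miR-377-3p A13G, and -0.084 for hosts with at least 500 reads. SI females against SI males was -0.11 to 2.09 with a rat left out, the negative value without the SI female numbered 12, and -0.37 for reads that start at base 1, -0.19 without miR-377-3p A13G, and -0.11 for hosts with at least 500 reads. Why the values moved was not tested beyond leaving out that site. Numbers shared between housing groups gave 2 pairs of males and 3 of females, whose site deviations correlated at -0.040 to 0.035. These were taken over sites of all 12 kinds, most of them at low shares. The check therefore cannot tell whether the numbers pair the rats. With the replicate block there were 0 A-to-G calls in either sex, and the mean share differed by -4.46 in males and -1.54 in females (exact p = 0.50 and 0.75, where the smallest are 0.50 and 0.25). The 3 values of 0 at miR-377-3p stood on 19 to 102 reads.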
